A study of Mus musculus with 6 samples.

Results

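Fibronectin, the SPARC family and the matricellular proteins are secreted proteins that cells deposit around themselves. The 10 genes described here are Fn1, Sparc, Spock2, Thbs1, Tnc, Spp1, Ctgf, Cyr61, Postn and Tgfbi, chosen by symbol, and all 10 were found once each among the 22958 RefSeq gene entries of the tables. RNA had been sequenced from brain endothelial cells of mouse embryos (strain C57BL/6 x 129/Sv) at E11.5 (embryonic day), sorted on CD31 (the product of Pecam1). The 3 control libraries carried the genotype label Cdhrs5CreERT2:R26Axin1IL-/- and had wildtype Axin1 expression. The 3 Axin1 libraries carried Cdhrs5CreERT2:R26Axin1IL+/- and overexpressed Axin1, a scaffold of the complex that degrades beta-catenin. The CreERT2 label, a Cre that tamoxifen activates, was common to both groups, and all mothers had received tamoxifen at E9.5. The labels call the libraries biological replicates and do not say whether embryos were pooled or shared a litter, so the p-values measure the spread between these libraries.

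Fibronectin is assembled by cells into fibrils through integrins and forms much of the early matrix around growing brain vessels, before the basement membrane matures. Matricellular proteins are secreted into the matrix without being main structural parts of it. They bind collagens, growth factors and integrins and are known for changing how firmly a cell adheres, spreads and migrates. In growing vessels CCN proteins (Cyr61 and Ctgf) are known as early targets of the mechanosensitive coactivators YAP and TAZ, while thrombospondin 1 is a classic inhibitor of angiogenesis that platelets also store.

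Library totals lay between 10772492 and 14234409 reads, and levels are given as CPM (counts scaled to library size by the TMM method). Axin1 itself read 25.03, 17.6 and 20.8 CPM in the controls. It read 79.8, 62.2 and 66.2 CPM in the Axin1 group, a rise in the direction of the labels (edgeR adjusted p = 0.0103, but 0.0915 without control 2 and 0.0721 without Axin1 library 2). Pecam1 was detected in every library at 1182 to 1455 CPM, and the 15 pan-endothelial markers summed to 9951 to 10135 CPM in the controls and 9911 to 11022 CPM in the Axin1 libraries. Of those 15 markers 0 passed edgeR's test, with 2 higher and 1 lower at an unadjusted p under 0.05, 1 higher by DESeq2 and 0 by limma. Groups did not overlap for 3 of the 15, against 23.8% of all tested genes. These were Cdh5 and Robo4, higher, and Esam, lower, named after their values were seen. Markers of other cells varied more. Axin1 library 1 held the lowest and Axin1 library 3 the highest summed level of the 14 macrophage and microglia markers and of the 12 megakaryocyte and platelet markers. Wherever 3 values follow each other they are those of replicates 1, 2 and 3.

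Of the 10 genes, all of which had enough reads to be tested, 2 fell in the Axin1 libraries and 0 rose by edgeR's quasi-likelihood test (adjusted p under 0.05 over all 12661 tested genes). Fn1 and Sparc were the genes that fell. Over all tested genes 0.845% were called, 0.49% lower and 0.355% higher. The 10 genes were picked with earlier results in view, so this count is not independent evidence of a direction. At an unadjusted p under 0.05 there were 4 genes lower (Fn1, Sparc, Spock2, Tgfbi) and 1 higher (Cyr61), where 17.2% of all tested genes passed in either direction (1147 higher and 1030 lower). DESeq2 called 3 lower (Fn1, Sparc, Spock2) and 0 higher, where it called 6.17% of all genes it tested (2.72% lower). It gave no adjusted p for Tnc and Postn. Limma on log2 RPKM called 0 of the 8 it tested, where it called 5 of 12367 genes. Groups did not overlap for 4 of the 10 genes, all lower, against 23.8% of all tested genes (12.4% lower and 11.3% higher). The median log2 fold change of the 10 was -0.02, with 5 positive and 5 negative values, beside a median of 0.02 over all tested genes.

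Per length of gene entry, in the RPKM values deposited by the authors, Sparc stood far above the other genes. Its mean in the controls was 2132 RPKM, the 28th highest of all entries, with libraries from 2057 to 2196 RPKM. Tgfbi (120 to 136 RPKM) and Fn1 (99.0 to 127 RPKM) followed with ranges that overlapped each other. Thbs1 (58.5 to 71.6 RPKM), Cyr61 (31.0 to 90.7 RPKM) and Spp1 (20.1 to 55.1 RPKM) came next. Cyr61 overlapped both Thbs1 and Spp1 in level, while Thbs1 and Spp1 did not overlap. Spock2 (3.11 to 17.2 RPKM) overlapped Ctgf (1.15 to 7.53 RPKM). Postn (0.34 to 0.60 RPKM) and Tnc (0.0594 to 0.298 RPKM) were close to the limit of detection, with 14 to 21 and 5 to 23 reads in the control libraries. In the Axin1 libraries the mean of Cyr61 was 192 RPKM, beside 89.3 for Thbs1, 86.8 for Tgfbi, 74.8 for Spp1 and 69.1 RPKM for Fn1. The Cyr61 mean rested on Axin1 library 1 (330.4 RPKM), and its range overlapped those of Thbs1, Tgfbi and Spp1. Cyr61 was below Thbs1 in Axin1 library 2 (89.6 against 95.8 RPKM) and below Spp1 in Axin1 library 3 (156 against 164 RPKM).

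**Figure D1:**
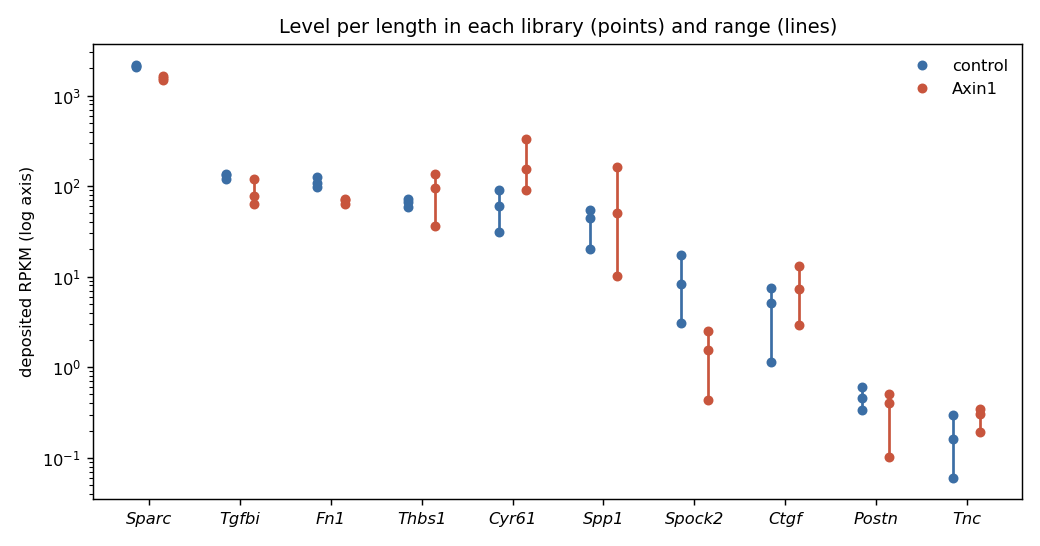
Deposited RPKM of each gene on a log axis, with 1 point per library and a line over the range of the 3 control (blue) or 3 Axin1 (red) libraries, ordered by the control mean. Sparc lies above all others in both groups, at 1484 to 2196 RPKM over the 6 libraries, and Postn and Tnc lie below 1 RPKM.

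Fn1 (NM_010233) encodes fibronectin, the fibril-forming glycoprotein that integrin alpha5 beta1 binds. Its level was 853, 899.8 and 1053 CPM in controls 1, 2 and 3. The Axin1 group read 613, 521 and 598 CPM. All 3 Axin1 libraries lay below all 3 controls, and neither group had a library far from the rest. The mean fell 1.62-fold, from 935 ± 104 to 578 ± 49.6 CPM (SD, n = 3 each), with a log2 fold change of -0.70 (SE 0.12, 95% confidence interval -0.96 to -0.43, edgeR adjusted p = 0.0438). The reference annotation places an antisense gene over exons of Fn1, and the sources used here do not say whether counting used strand, so reads of the pair cannot be told apart. In sorted bulk RNA, fewer cells of a type and less RNA per cell also cannot be told apart.

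Sparc (NM_009242) encodes a collagen-binding protein of basement membranes that endothelial cells secrete in large amounts. Its reads made up 0.495% of all reads in the controls and 0.361% in the Axin1 libraries. The controls read 4904, 4972 and 5051 CPM. The Axin1 group read 3453, 3713 and 3637 CPM. The gap between the groups was wide against the spread within them, since the coefficient of variation was 1.48% in the controls and 3.71% in the Axin1 libraries. Among 4241 genes with a mean of at least 50 CPM the median coefficient of variation in the controls was 10.5%, and 1.65% of those genes had a smaller one than Sparc. The mean fell 1.38-fold, a log2 fold change of -0.47 (SE 0.08, 95% confidence interval -0.66 to -0.28, edgeR adjusted p = 0.0492).

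Both calls stood close to the threshold. Each was kept in 1 of the 6 edgeR fits that left out a single library, namely the fit lacking control 3, where Fn1 had an adjusted p of 0.0193 and Sparc of 0.0303. Leaving out control 1 gave 0.116 for Fn1 and 0.154 for Sparc, and leaving out control 2 gave 0.198 and 0.21 (edgeR adjusted p). Leaving out Axin1 library 1, 2 or 3 gave 0.077, 0.159 and 0.11 for Fn1 and 0.113, 0.159 and 0.128 for Sparc (edgeR adjusted p). Over those 6 fits the log2 fold change of Fn1 ranged from -0.76 to -0.62 and that of Sparc from -0.49 to -0.44.

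Spock2 (testican 2) encodes a secreted proteoglycan of the SPARC family. It had the largest fold change of the 10 genes in size and also a wide spread. The control libraries held 12.5, 32.1 and 66.6 CPM and the Axin1 libraries 1.68, 5.85 and 9.85 CPM, in the order of replicates 1, 2 and 3. Every Axin1 library lay below every control, although control 1 and Axin1 library 3 were near each other. The means were 37.1 ± 27.4 and 5.80 ± 4.09 CPM (SD, n = 3 each), a ratio of 6.40. The log2 fold change of -2.68 (SE 0.85, 95% confidence interval -4.80 to -0.56) did not pass edgeR's test over all genes (adjusted p = 0.21). DESeq2 gave an adjusted p of 0.0461, and the fits without 1 library gave edgeR adjusted p values of 0.254 to 0.403. In those fits the log2 fold change ran from -1.96 without control 3 to -3.28 without Axin1 library 3. The read counts behind these levels were 143, 419 and 725 in the controls and 21, 85 and 114 in the Axin1 libraries.

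Promoter sequences for 7 of the 10 genes were in the RefSeq table used here (build GRCm38.p6, while the counts rest on mm9). The 250 bases before the annotated start are shown for Sparc and Spock2, which belong to 1 family and lay lower in all Axin1 libraries, and for Cyr61, which had the largest positive fold change. Capitals mark matches to motifs searched on both strands. These were GGAATG, bound by TEAD factors, CTTTGAA and CTTTGAT, bound by the TCF/LEF partners of beta-catenin, and TGANTCA, bound by AP-1.
Sparc (chr11:55420081-55420330, minus strand): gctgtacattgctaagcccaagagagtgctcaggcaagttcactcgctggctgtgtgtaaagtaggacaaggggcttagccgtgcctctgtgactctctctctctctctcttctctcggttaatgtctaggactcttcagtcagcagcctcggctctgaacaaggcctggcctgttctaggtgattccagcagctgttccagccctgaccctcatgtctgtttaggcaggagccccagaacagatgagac
Spock2 (chr10:60106007-60106256, plus strand): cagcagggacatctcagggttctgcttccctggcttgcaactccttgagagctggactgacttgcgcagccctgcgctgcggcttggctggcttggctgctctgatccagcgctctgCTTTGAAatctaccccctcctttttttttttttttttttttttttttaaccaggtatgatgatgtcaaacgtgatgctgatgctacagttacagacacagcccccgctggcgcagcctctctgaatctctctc
Cyr61 (chr3:145649986-145650235, minus strand): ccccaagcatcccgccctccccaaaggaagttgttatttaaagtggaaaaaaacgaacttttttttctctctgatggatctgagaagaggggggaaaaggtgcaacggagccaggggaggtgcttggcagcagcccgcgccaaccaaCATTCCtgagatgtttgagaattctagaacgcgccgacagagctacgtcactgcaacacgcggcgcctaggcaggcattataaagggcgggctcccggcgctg

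The Spock2 window held 1 CTTTGAA, starting 133 bases before the start site. Of all 32817 promoter windows of that length, 4.46% held CTTTGAA, 3.21% CTTTGAT, 12.6% GGAATG and 6.75% TGANTCA. The Cyr61 window held GGAATG once, on the opposite strand, 103 bases before the start site. No match to the 4 motifs was found in the Sparc window or in those of Tgfbi, Postn, Spp1 and Tnc. A match of letters is a description and no measure of binding, which was not assayed.

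**Figure D2:**
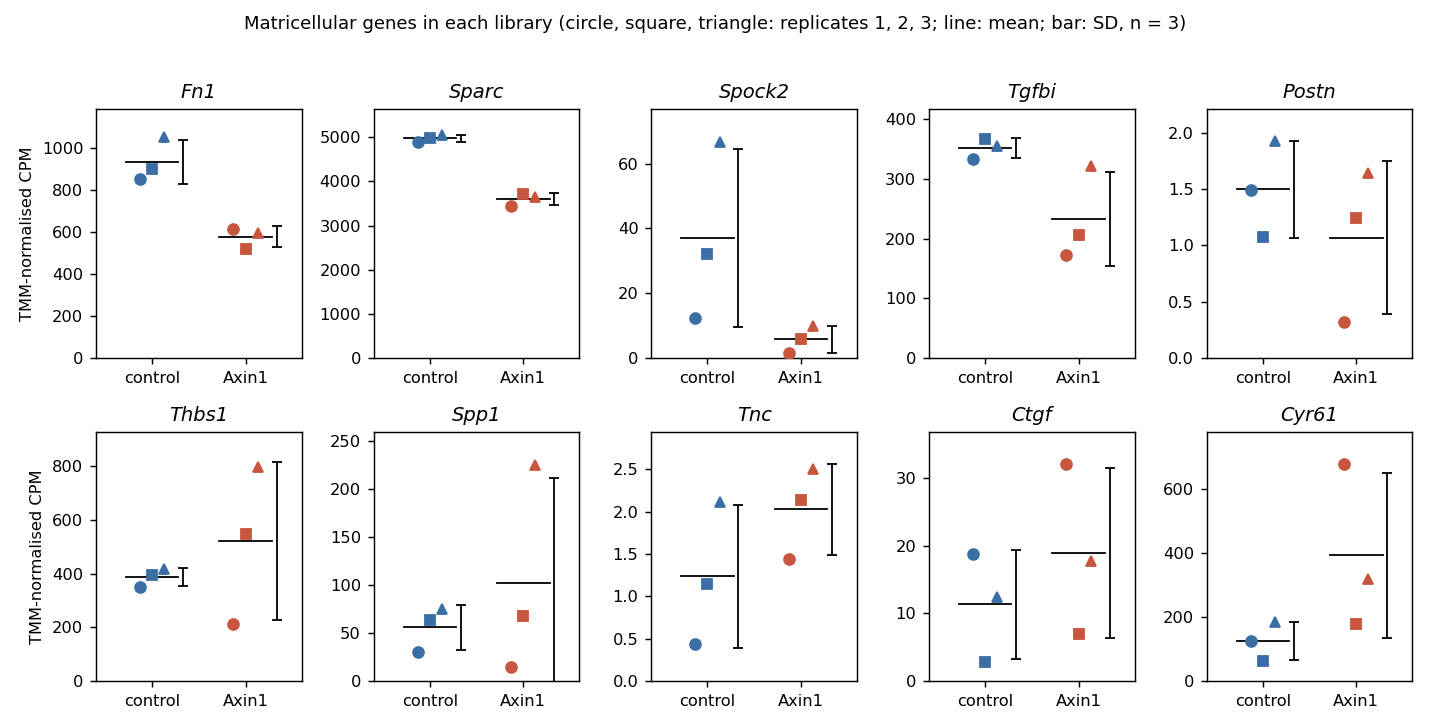
TMM-normalised CPM of each gene in the 3 control (blue) and 3 Axin1 (red) libraries on linear axes from 0, with marker shapes for replicates 1, 2 and 3, a line at the mean and a bar of 1 SD (n = 3), which for Spp1 in the Axin1 libraries is cut at 0. Groups are separate for Fn1, Sparc, Spock2 and Tgfbi and overlap for the other genes.

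Tgfbi and Postn encode adhesion proteins with fasciclin domains that bind integrins and collagens, and both were first known as proteins induced by TGF-beta or in bone. Tgfbi read 334, 367 and 355 CPM in the controls. The Axin1 group read 172, 207 and 322 CPM. The controls were tight, at 352 ± 16.9 CPM, while the Axin1 libraries spread around 234 ± 78.7 CPM (SD, n = 3 each). Axin1 library 3 lay just below the lowest control and the others well below. Its log2 fold change was -0.59 (SE 0.22, 95% confidence interval -1.10 to -0.08), which did not pass (edgeR adjusted p = 0.231), and leaving out Axin1 library 3 gave -0.89 (edgeR adjusted p = 0.0632).

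Postn (periostin) was nearly absent from these libraries. It had 17, 14 and 21 reads in the controls and 4, 18 and 19 in the Axin1 libraries, and Axin1 library 1 was the low one. The log2 fold change of -0.48 (95% confidence interval -1.92 to 0.95, edgeR adjusted p = 0.746) left a difference in either direction possible at this depth. It was -0.056 without Axin1 library 1 and -0.91 without Axin1 library 3. Periostin is a typical product of mesenchymal cells, whose 18 pericyte and mesenchyme markers summed to 89.8 to 206 CPM in the controls and 157 to 236 CPM in the Axin1 libraries. Of those markers 16 were tested and 0 passed edgeR's test, with 0 at an unadjusted p under 0.05 and 0 by DESeq2 or limma. Myh11, Des and Twist1 were at 0 reads in control 1.

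Thbs1, Spp1 and Tnc encode modulators of adhesion that blood or matrix-forming cells are also known to make. Thbs1, thrombospondin 1, was at 352, 395 and 416 CPM in control libraries 1, 2 and 3. In Axin1 libraries 1, 2 and 3 it was at 212, 549 and 799 CPM. The controls thus lay between the lowest and the other Axin1 libraries, and the spread in the Axin1 group (coefficient of variation 56.6%) was far above that in the controls (8.42%). Its log2 fold change was 0.43 (SE 0.46, 95% confidence interval -0.73 to 1.58, edgeR adjusted p = 0.701). Without Axin1 library 1 the value was 0.80 (edgeR adjusted p = 0.0988), and without Axin1 library 3 it was -0.024 (edgeR adjusted p = 0.989).

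The 12 megakaryocyte and platelet markers summed to 1798, 1684 and 1843 CPM in the controls, against 815, 2146 and 2794 CPM in the Axin1 group. No marker of that list was at 0 reads in any library. Pf4, a chemokine of platelet granules, had 617, 576 and 645 CPM in the controls, against 201, 785 and 934 CPM in the Axin1 group. Thbs1, Pf4 and the sum of these markers were thus lowest in Axin1 library 1 and highest in Axin1 library 3. Clec1b did not follow that order and was singled out after its values were seen. It read 324, 277 and 257 CPM in the controls, against 202, 169 and 195 CPM in the Axin1 group. The part of platelet RNA in the Thbs1 level was not tested. Of the 12 markers 0 passed edgeR's test, with 0 higher and 1 lower at an unadjusted p under 0.05, 1 lower by DESeq2 and 0 by limma.

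Spp1 encodes osteopontin, an integrin and CD44 ligand that macrophages make in large amounts. Control libraries 1, 2 and 3 held 29.7, 63.5 and 74.6 CPM, and Axin1 libraries 1, 2 and 3 held 14.5, 67.1 and 225 CPM. Axin1 library 1 was the lowest of all 6 and Axin1 library 3 the highest, 15.4 times apart. The log2 fold change was 0.87 (SE 0.99, 95% confidence interval -1.65 to 3.38, edgeR adjusted p = 0.716), and without Axin1 library 3 it was -0.45 (edgeR adjusted p = 0.876).

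The summed level of the 14 macrophage and microglia markers was 589, 1044 and 537 CPM in the controls, against 303, 1509 and 3133 CPM in the Axin1 group. None of these markers was at 0 reads in any library. Cx3cr1, the fractalkine receptor of microglia, had 79.4, 174 and 102 CPM in the controls, against 47.5, 264 and 581 CPM in the Axin1 group. The log2 fold change was above 0 for all 14 markers (median 1.20), and 0 passed edgeR's test, 0 at an unadjusted p under 0.05 and 0 by DESeq2 or limma. The lowest and the highest library of the summed level were those of Spp1. Among the controls the orders differed, since Spp1 was highest in control 3, where the summed level was lowest. Erythroid markers summed to 740, 1886 and 3080 CPM in the controls, against 262, 1309 and 2722 CPM in the Axin1 group. They were thus also lowest in Axin1 library 1, but highest in control 3. The part of macrophage or other blood cell RNA in the Spp1 level was not tested.

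**Figure D3:**
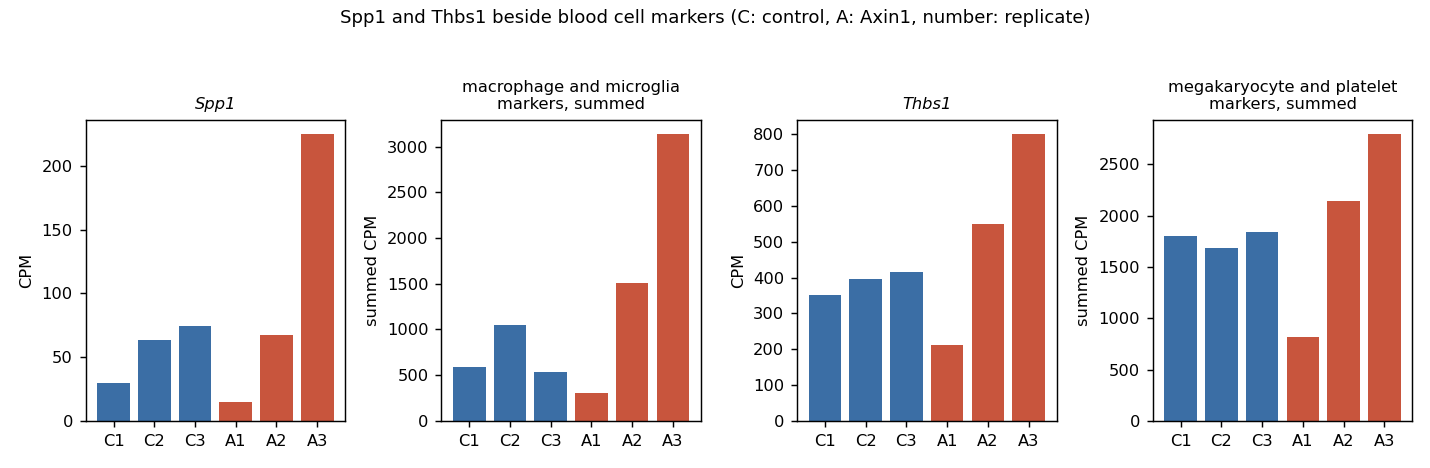
Bars from 0 give the CPM of Spp1 and Thbs1 and the summed CPM of 14 macrophage and microglia and 12 megakaryocyte and platelet markers in the 3 control (C, blue) and 3 Axin1 (A, red) libraries. All 4 panels are lowest in Axin1 library 1 and highest in Axin1 library 3, where Spp1 reaches 225 CPM and Thbs1 799 CPM.

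Tnc (tenascin C), a hexameric protein of embryonic and wounded tissue, had 5, 15 and 23 reads in the controls and 18, 31 and 29 in the Axin1 libraries. Its log2 fold change of 0.72 (95% confidence interval -0.64 to 2.07) did not pass (edgeR adjusted p = 0.589), and the groups overlapped. It was 0.31 without control 1 and 1.32 without control 3. Exons of Tnc, Thbs1 and Ctgf also overlap a gene on the other strand in the reference annotation, and those of Spp1 a gene on its own strand, which leaves their counts uncertain.

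Cyr61 and Ctgf encode the CCN proteins 1 and 2, integrin ligands that stretch, serum and YAP/TAZ induce within hours. Cyr61 read 126, 63.5 and 184 CPM in the controls. The Axin1 group read 678, 179.7 and 320.2 CPM. Axin1 library 2 lay just below control 3, so that the groups overlapped, and Axin1 library 1 stood highest. The mean was 3.16-fold higher, 124 ± 60.3 against 393 ± 257 CPM (SD, n = 3 each). The log2 fold change of 1.66 (SE 0.63, 95% confidence interval 0.07 to 3.25) did not pass edgeR's test (adjusted p = 0.274) or that of DESeq2 (adjusted p = 0.137). Without Axin1 library 1 it was 1.00 (edgeR adjusted p = 0.389).

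Ctgf was lower in level and varied more within the groups than between them. The highest control was 6.63 times the lowest and the highest Axin1 library 4.62 times the lowest, while the means differed 1.67-fold. Levels were 18.8, 2.84 and 12.4 CPM in the controls, against 32.1, 6.96 and 17.7 CPM in the Axin1 group. The lowest libraries were control 2 and Axin1 library 2, and the groups overlapped. The log2 fold change was 0.74 (SE 0.81, 95% confidence interval -1.28 to 2.76, edgeR adjusted p = 0.701), and in the fits without 1 library it ran from 0.12 (without Axin1 library 1) to 1.31 (without control 1). In each pair with the same replicate number the Axin1 library was the higher one. With those numbers in the fit the edgeR adjusted p was 0.137, and 0.0152 with title numbers in 4 libraries (control 3 and Axin1 library 3 left out). The labels do not say what a shared number means.

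**Figure D4:**
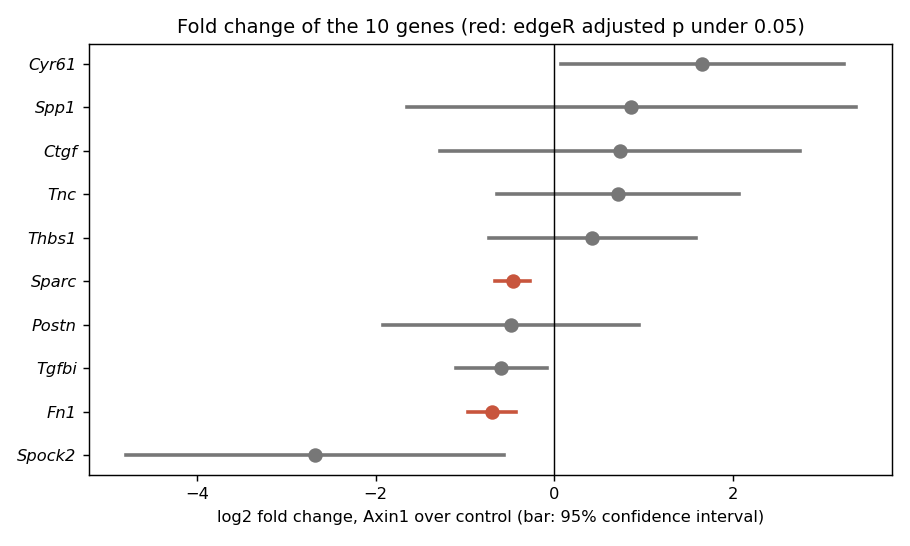
Log2 fold change of each gene (Axin1 over control, point) with its 95% confidence interval (bar) from edgeR's quasi-likelihood fit, sorted by value. Only the intervals of Fn1 and Sparc (red) belong to genes past the adjusted threshold, while those of Spock2, Tgfbi and Cyr61 also leave out 0 and the other 5 include it.

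Over the 6 libraries the genes fell into patterns that the means do not show. The measure was Pearson's r of log2 CPM over 6 libraries, given as a description. Part of each r reflects the step between the groups. Within the set the highest values were 0.955 for Thbs1 with Spp1, 0.929 for Fn1 with Sparc, 0.886 for Spock2 with Tgfbi and 0.859 for Sparc with Spock2. Ctgf was most like Cyr61 (0.831). The lowest values were those of Cyr61 with Sparc (-0.79), Spock2 (-0.71) and Tgfbi (-0.70). Each gene was also set against the tested genes with a mean of at least 5 CPM, without predicted genes and Riken clones. These were many, so a high r over 6 libraries can come from the picking alone. The genes most like Fn1 were Lpcat1 (0.987), Adamtsl2 (0.986) and Ctnnd2 (0.983). Sparc was followed most closely by Vkorc1, Tpd52l1 and Urod (0.997 each), and Spock2 by Lsr (0.993), Mfsd2a (0.992) and Ctsw (0.991). The nearest to Thbs1 were Gsn and Taok3 (0.998 each) and the platelet glycoprotein gene Gp1ba (0.997). Those nearest to Spp1 were Wdpcp (0.992), Pbxip1 (0.986) and Madd (0.985), none of them in the macrophage and microglia list.

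Among family relatives of the 10 genes, 10 of 21 listed had enough reads to be tested, and 0 passed edgeR's test. At an unadjusted p under 0.05 there were 3 higher and 1 lower, against 17.2% of all tested genes. DESeq2 called 1 lower, against 6.17% of all genes it tested in either direction, and limma 0. The lower one was Sparcl1 (hevin), the closest relative of Sparc. The controls read 895, 1206 and 907 CPM and the Axin1 group 711, 704 and 779.6 CPM, with every Axin1 library below every control (log2 -0.46, edgeR adjusted p = 0.145, DESeq2 adjusted p = 0.0499). Fstl1, another SPARC family gene of like abundance, was at 1053 ± 36.9 CPM in the controls, against 1019.9 ± 2.49 CPM (SD, n = 3 each, log2 -0.05, edgeR adjusted p = 0.836). Fstl1 was singled out after its values were seen. Thrombospondin relatives Thbs2 (log2 1.47, edgeR adjusted p = 0.139) and Comp (log2 1.76, edgeR adjusted p = 0.118) were scarce, at under 4 CPM in all libraries.

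Of 18 tested genes for receptors of these proteins, 0 passed edgeR's test. Unadjusted p was under 0.05 for 2 higher and 2 lower, against 17.2% of all tested genes. DESeq2 called 1 of the 18 higher and 1 lower, against 6.17% of all genes it tested, and limma 0. Itga5, the alpha chain of the main fibronectin receptor, read 178, 169 and 261 CPM in the controls, against 327, 309.7 and 324 CPM in the Axin1 group, so that the groups did not overlap (log2 0.66, edgeR adjusted p = 0.106). Its edgeR adjusted p was 0.00363 without control 3 and 0.159 to 0.317 in the other 5 fits without 1 library. Itga4, the alpha chain of an integrin that binds fibronectin and osteopontin, read 139, 161 and 160.0 CPM in the controls, against 79.2, 96.8 and 106 CPM in the Axin1 group (log2 -0.71, edgeR adjusted p = 0.0575, 0.0375 without control 3 and 0.097 to 0.229 in the other 5 such fits). The common beta chain Itgb1, singled out after its values were seen, was at 419.6 ± 41.4 CPM in the controls, against 433 ± 29.6 CPM (SD, n = 3 each).

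Other secreted glycoproteins of the vessel wall held 1 called gene of 18 tested, Ecm1, which fell, against 0.845% of all tested genes called. Unadjusted p was under 0.05 for 3 higher and 3 lower, against 17.2% of all tested genes. DESeq2 called 0 higher and 3 lower, against 6.17% of all genes it tested, and limma 0. Those 3 were Ecm1, Igfbp7 and Bgn (DESeq2 adjusted p = 0.00107, 0.00665 and 0.0461). Ecm1 (extracellular matrix protein 1) read 650.5, 611 and 645 CPM in the controls, against 391, 462 and 433 CPM in the Axin1 group (log2 -0.57, SE 0.10, edgeR adjusted p = 0.0492). It passed in 1 of the 6 fits without 1 library (without control 3), and its edgeR adjusted p ranged from 0.0287 to 0.208 over them. Groups did not overlap for 7 of the 18, against 23.8% of all tested genes. Besides Ecm1 these were Igfbp7, an IGF-binding protein of vessel walls (log2 -0.88, edgeR adjusted p = 0.0864), the small proteoglycan gene Bgn (log2 -0.35, edgeR adjusted p = 0.111) and Tinagl1, a basement membrane adhesion protein (log2 0.64, edgeR adjusted p = 0.118). The others were Mmrn1 (log2 -0.10), Emilin1 (log2 0.47) and Edil3 (log2 0.61), at edgeR adjusted p values of 0.629, 0.222 and 0.174, named after their values were seen. The list had 9 positive and 9 negative values with a median of -0.04.

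The YAP-TEAD list holds the factors and targets known to follow them apart from Cyr61 and Ctgf. Of 24 tested, edgeR called 1 higher and 1 lower, against 0.845% of all tested genes. At an unadjusted p under 0.05 there were 6 higher and 2 lower, against 17.2% of all tested genes. DESeq2 called 5 higher and 1 lower, against 6.17% of all genes it tested, and limma 0. Igfbp3, an IGF-binding protein gene, rose from 35.8 ± 2.03 to 58.4 ± 1.29 CPM (SD, n = 3 each, log2 0.70, edgeR adjusted p = 0.0438), and the forkhead factor gene Foxf2 fell from 20.7 ± 3.06 to 6.34 ± 1.67 CPM (log2 -1.71, edgeR adjusted p = 0.0347). Each passed only without control 3 among the 6 fits without 1 library, with edgeR adjusted p values up to 0.198. The groups did not overlap for 11 of the 24, against 23.8% of all tested genes. Among these were Arhgef17 (log2 0.85, edgeR adjusted p = 0.0527, DESeq2 adjusted p = 0.002) and the Arf regulator gene Asap1 (log2 0.50, edgeR adjusted p = 0.0873, DESeq2 adjusted p = 0.0267). Ankrd1, a target often read together with Cyr61 and Ctgf, was at 0.743 ± 0.578 CPM in the controls, against 3.12 ± 3.81 CPM (SD, n = 3 each, log2 2.08, edgeR adjusted p = 0.395), with groups that overlapped, and it was singled out after its values were seen.

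None of 21 tested genes of the TGF-beta pathway and its matrix targets passed the test of edgeR, DESeq2 or limma. Unadjusted p was under 0.05 for 2 higher and 3 lower, against 17.2% of all tested genes. The 4 with the smallest p were Skil (log2 0.59), Smad3 (-0.57), Tgfbr1 (0.49) and Tgfb2 (-0.50), at edgeR adjusted p values of 0.155 to 0.213. Of 16 tested genes of matrix crosslinking and processing 0 passed edgeR's test. Unadjusted p was under 0.05 for 6 higher and 2 lower, against 17.2% of all tested genes. DESeq2 called 2 higher and 1 lower, against 6.17% of all genes it tested, and limma 0. Mmp2, the gelatinase that cleaves denatured collagen, read 79.5, 71.0 and 174 CPM in the controls, against 323, 348 and 227 CPM in the Axin1 group (log2 1.47, edgeR adjusted p = 0.15, 0.00197 without control 3 and 0.221 to 0.365 in the other 5 such fits). Plod1, a lysyl hydroxylase, was at 479 ± 69.0 CPM in the controls, against 337 ± 34.8 CPM (SD, n = 3 each, log2 -0.51, edgeR adjusted p = 0.115). The genes that DESeq2 called were Mmp2 and Loxl2, higher, and Plod1, lower (DESeq2 adjusted p = 6.8e-05, 0.0345 and 0.0224).

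Immediate early and stress genes were listed because Cyr61, Ctgf and Thbs1 are known to be induced as quickly as they are. Of 17 tested 0 passed edgeR's test. Unadjusted p was under 0.05 for 5 higher and 0 lower, against 17.2% of all tested genes. DESeq2 called 2 higher, against 6.17% of all genes it tested, and limma 0. The median log2 fold change was 0.41, with 14 positive and 3 negative values. The transcription factor gene Atf3 read 151, 67.8 and 83.2 CPM in the controls, against 304, 162 and 470.0 CPM in the Axin1 group (log2 1.63, edgeR adjusted p = 0.193). The heat shock gene Hspa1a read 8.93, 8.36 and 9.47 CPM in the controls, against 36.4, 15.8 and 38.1 CPM in the Axin1 group (log2 1.75, edgeR adjusted p = 0.0561, DESeq2 adjusted p = 1.6e-05). Junb read 7.18, 3.91 and 4.14 CPM in the controls, against 11.7, 12.5 and 28.0 CPM in the Axin1 group (log2 1.78, edgeR adjusted p = 0.0959, DESeq2 adjusted p = 0.00093). Within the Axin1 group Atf3 and Hspa1a were lowest in library 2 and highest in library 3. Junb was lowest in library 1 and highest in library 3, and Jun was lowest in library 3 and highest in library 2. Cyr61 was lowest in library 2 and highest in library 1. The 3 genes most like Cyr61 over the 6 libraries were Cep152, the chaperone gene Dnajb1 and Trio (Pearson's r 0.993, 0.993 and 0.990). The part of a stress response in the Cyr61 level was not tested.

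Over all 7 related lists, with each gene counted once, 123 genes were tested, of which 1 rose and 2 fell, where 0.845% of all tested genes were called. Their median log2 fold change was 0.27, with 85 positive and 38 negative values, beside 6648 positive and 6013 negative among all tested genes. Some genes stand in more than 1 list. Groups did not overlap for 41 of the 123, against 23.8% of all tested genes.

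**Figure D5:**
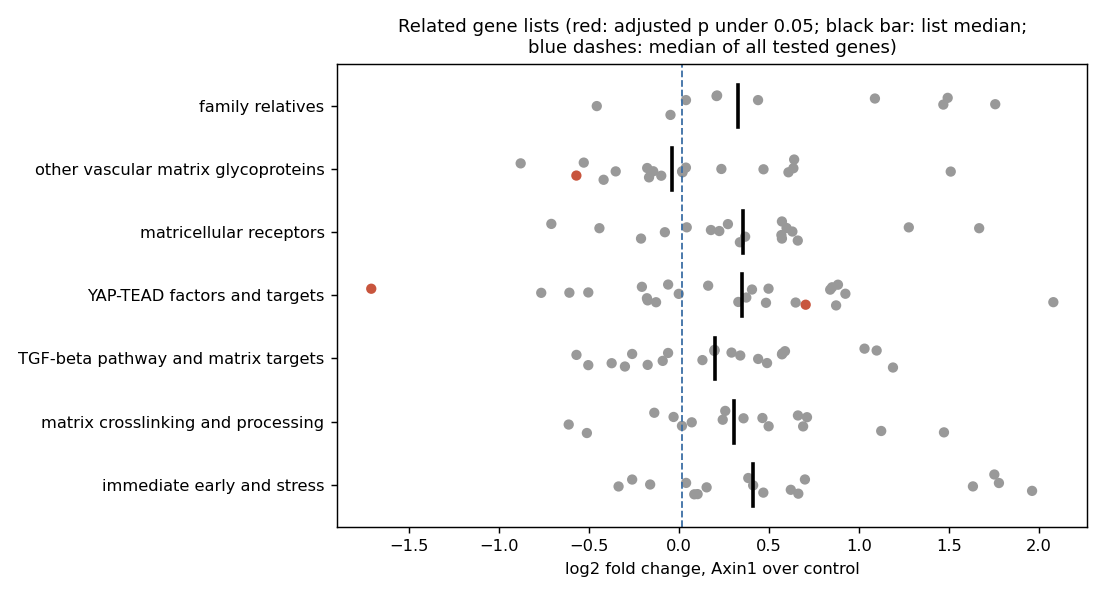
Log2 fold change (Axin1 over control) of each tested gene in the 7 related lists, the 10 genes themselves left out, with red points for an edgeR adjusted p under 0.05, a black bar at the list median and a dashed line at the median of all tested genes (0.02). The red points are Ecm1, Foxf2 and Igfbp3, and list medians run from -0.04 to 0.41.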

How the data were processed

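Each library's deposited table pairs every RefSeq gene entry with its reads (a count) and its RPKM, per the file headers. Bowtie and the mm9 build are named, without versions, in the submitters' processing notes. How reads were assigned to genes, with which program and strand setting, is not given in these sources. The deposited counts were used for all main tests, and the RPKM deposited by the authors for levels between genes and as an alternative. Genes were kept by filterByExpr (minimum count 10, minimum total 15), scaled by TMM and fitted with edgeR 4.0.16 (R 4.3.3, robust quasi-likelihood, no covariates), with Benjamini-Hochberg adjustment over all tested genes. DESeq2 1.42.0 and limma 3.58.1 (log2 of RPKM plus 1, trend) were alternatives. An SE is the fold change divided by the square root of F, and intervals are 95% confidence intervals. All counts carry counting error besides the spread between libraries. All pairs of libraries differed by more than counting error (chi-square over its degrees of freedom 15.3 to 56.3). Fits were also run on simulated counts that gave all genes the same relative spread. Genes differed in spread here, so that run does not check the calls reported.

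The genes, lists and tests were chosen with earlier results of these data known. Named genes were the 10, Axin1, up to 4 genes of each related list with the smallest p, any called list gene, the 2 most abundant markers of each cell type and the 3 genes most like each of the 10. The lists were family relatives, other vascular matrix glycoproteins, receptors, YAP-TEAD genes, TGF-beta genes, crosslinking and processing genes, and immediate early and stress genes. Marker lists covered pan-endothelial, pericyte and mesenchyme, macrophage and microglia, and megakaryocyte and platelet cells. Erythroid markers summed to 740 to 3080 CPM in the controls and 262 to 2722 CPM in the Axin1 libraries, and neural markers to 288 to 472 and 340 to 365 CPM, with 0 called in either list by edgeR, DESeq2 or limma and 0 at an unadjusted p under 0.05.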

Additional observations from a re-analysis of the deposited data

How the results depend on the processing

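Calls were few and depended on the setting. Fn1, Sparc, Ecm1, Foxf2, Igfbp3 and Axin1 kept their direction in all 16 settings, but so did uncalled genes such as Ctgf and Cyr61. A kept direction thus does not set the called genes apart, and refits of the same libraries could hardly reverse groups that do not overlap. Against 107 genes called over all, DESeq2 called 672, edgeR without robust estimation 51, without a filter on low counts 197, and limma on log2 RPKM 5 with a pseudocount of 1 and 5 with 0.1. The fits that left out 1 library called 0 (without control 2 or Axin1 library 2, with 1539 and 1733 at an unadjusted p under 0.05) to 695 (without control 3). Of the 10 matricellular genes 2 were called. RLE scaling called 1 (Fn1, with Sparc at an edgeR adjusted p of 0.0516), edgeR without robust estimation 0, limma 0 with either pseudocount, and the fits without 1 library 0 to 2. At an unadjusted p under 0.05 there were 5 genes by limma and by edgeR without robust estimation. Of the related lists 3 genes were called, against 17 by DESeq2, 1 without robust estimation, 6 without a filter, 5 with at least 5 CPM in 3 libraries, 0 by limma with either pseudocount (41 at an unadjusted p under 0.05) and 0 to 11 without 1 library. In the fits without 1 library Thbs1 ranged from -0.024 to 0.80 and Spp1 from -0.45 to 1.38 on the log2 scale, uncalled, and both were below 0 without Axin1 library 3. Fn1 ranged from -0.76 to -0.62 and Sparc from -0.51 to -0.44 over all settings. The causes were not tested.

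Descriptions number the replicates 1 to 3 in both groups, and title numbers are shared by replicates 1 and 2 only. Deviations from the group means correlated across genes at 0.23, 0.15 and -0.02 for the pairs numbered 1, 2 and 3. Control 2 and Axin1 library 3 correlated at 0.17. Deviations within a group depend on each other, so these values cannot show whether libraries with a shared number are paired. With the replicate block of the descriptions 105 genes were called, 2 of them matricellular (Fn1 and Spock2, at edgeR adjusted p values of 0.0484 and 0.00559) and 2 in the related lists. With the block of title numbers in 4 libraries 1500 were called, 6 of them matricellular and 39 in the related lists, and Thbs1 turned to -0.13 and Spp1 to -0.44. Those 6 were Fn1, Sparc, Spock2 and Tgfbi, lower, and Ctgf and Cyr61, higher. That fit left out control 3 and Axin1 library 3 and had few libraries to estimate the spread from. Leaving out control 3 alone gave 695 calls. Without Axin1 library 3 alone Thbs1 was at -0.024 and Spp1 at -0.45. The effect of the block thus cannot be told apart from that of the libraries left out. Postn and Tnc, with at most 31 reads in a library, are limited by depth.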

Other observations

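Several relatives of the matricellular genes were too scarce for a test. Ibsp, a bone relative of osteopontin, had 0 reads in all libraries. Thbs4 had 0 reads in the controls and 9 in the Axin1 libraries together, and the CCN family gene Wisp3 had 16 and 51. The testicans Spock1 and Spock3 each had 6 reads in the controls and 2 in the Axin1 libraries, so that Spock2 was the only testican measured at an appreciable level here.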
